A study of Homo sapiens with 36 samples.

Results

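SCAF4-only sites were stretches of RNA at which cross-linking clusters were found with FLAG-SCAF4 and with neither FLAG-SCAF8 nor any background list. They were selected on the cluster lists themselves. Overlapping clusters (1 nt or more, same strand) were merged over 6 immunoprecipitation (IP) lists, 3 of SCAF4 and 3 of SCAF8. A merged region was kept if it held clusters of at least 2 SCAF4 lists and of 0 SCAF8 lists and overlapped no cluster of the 9 inputs or the 3 control IPs. Of 77186 merged regions, 5658 met this rule, or 7.33% of all. The absence of SCAF8 clusters is thus how the sites were chosen and is no finding about them. Where no cluster was called, the number of SCAF8 reads is unknown, because the lists hold no reads.

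The lists came from PAR-CLIP, in which cells take up 4-thiouridine (4SU), ultraviolet light links it to bound protein, and linked uridines are read as T-to-C transitions. All lines were Flp-In T-REx HEK293 cells, an established human embryonic kidney line. One expressed FLAG-SCAF4, another FLAG-SCAF8, and the parental line, in which no protein was tagged, gave the control IP and control input. Each line had 3 replicates of IP and input, with the soluble and chromatin fractions sequenced as separate libraries (36 libraries in all) and combined before clusters were called.

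All cells were given 100 μM 4SU overnight and 500 μM for 2 h, and were irradiated with 2000 J/m2 at 365 nm. The labels give 100 ng/mL doxycycline, which switches on the tagged protein, for both tagged lines and no doxycycline for the parental cells. The study's methods differ from the labels and state a higher dose, given to all 3 lines, so that the treatment of the control line is not settled. The tagged proteins were thus expressed from an induced transgene beside the cells' own proteins. IP lists held 18991, 54404 and 33962 clusters for SCAF4 and 25189, 18287 and 41502 for SCAF8, in the order of replicates 1, 2 and 3. Control IPs held 1621 to 9638 clusters and inputs 4567 to 12493. Replicate 1 was sequenced with longer reads than replicates 2 and 3. Nothing in the labels says that replicates came from separate cultures, so p-values measure only the spread between these lists.

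SCAF4 and SCAF8 are paralogous nuclear proteins that bind the phosphorylated C-terminal domain of RNA polymerase II and also bind RNA. They are known to suppress the use of early polyadenylation sites, at which a transcript is cleaved and ended before its full length. SCAF4 is in addition known to favour termination at the regular end of the gene. The question asked of the SCAF4-only sites was where in genes they lay, what sequence they held and how they differed from sites found with SCAF8 only or with both proteins.

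The 12 sites below were chosen for display because they had clusters in all 3 SCAF4 lists and the highest scores there, with at most 1 site per gene. Only sites with the midpoint in coding sequence or an intron could be shown, and 1 chromosome was left out. Each line gives 100 nt around the midpoint of a site, 5′ to 3′ on the transcribed strand, from the GRCh38 genome. Capitals mark the letters of 3 short motifs, which were CGG or CGA, CAG with a C or G on each side, and CUCC or CACC. T stands for U.

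RPSA2, intron 1 of 3, chr19:23776207-23776306, plus strand: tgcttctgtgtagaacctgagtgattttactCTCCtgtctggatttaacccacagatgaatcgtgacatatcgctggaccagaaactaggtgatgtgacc
UBR4, coding exon 68 of 106, chr1:19121330-19121429, minus strand: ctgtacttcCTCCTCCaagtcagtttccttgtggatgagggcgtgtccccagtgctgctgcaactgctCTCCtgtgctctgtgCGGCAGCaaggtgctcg
PKD1P1, intron 10 of 31, chr16:16320487-16320586, plus strand: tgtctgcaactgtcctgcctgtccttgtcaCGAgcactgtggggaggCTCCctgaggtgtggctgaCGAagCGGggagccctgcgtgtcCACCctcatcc
NUP188, coding exon 21 of 44, chr9:128986579-128986678, plus strand: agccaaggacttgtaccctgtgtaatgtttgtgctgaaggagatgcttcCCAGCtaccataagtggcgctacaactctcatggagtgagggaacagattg
AKAP12, coding exon 4 of 5, chr6:151350784-151350883, plus strand: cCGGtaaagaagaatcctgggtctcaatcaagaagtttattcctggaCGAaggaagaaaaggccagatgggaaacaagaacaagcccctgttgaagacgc
ANAPC5, coding exon 10 of 17, chr12:121328354-121328453, minus strand: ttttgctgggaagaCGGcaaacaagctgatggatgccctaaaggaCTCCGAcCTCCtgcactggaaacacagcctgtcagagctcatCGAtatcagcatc
RNF213, coding exon 29 of 68, chr17:80346447-80346546, plus strand: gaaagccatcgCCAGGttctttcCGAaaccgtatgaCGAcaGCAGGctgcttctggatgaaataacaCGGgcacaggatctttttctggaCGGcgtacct
CEP290, coding exon 9 of 56, chr12:88130328-88130427, minus strand: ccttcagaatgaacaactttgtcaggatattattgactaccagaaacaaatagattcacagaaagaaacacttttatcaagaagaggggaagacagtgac
AKAP17A, coding exon 5 of 5, chrX:1600841-1600940, plus strand: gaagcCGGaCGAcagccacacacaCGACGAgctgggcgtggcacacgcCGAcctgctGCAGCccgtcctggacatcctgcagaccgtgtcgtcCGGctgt
SLC6A15, coding exon 2 of 5, chr12:84891923-84892022, minus strand: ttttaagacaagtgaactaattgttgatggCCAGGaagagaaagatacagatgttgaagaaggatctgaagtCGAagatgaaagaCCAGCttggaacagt
GPT2, intron 9 of 11, chr16:46924303-46924402, plus strand: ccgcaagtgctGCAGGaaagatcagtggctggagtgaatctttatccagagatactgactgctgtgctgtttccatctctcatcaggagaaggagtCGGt
YLPM1, coding exon 4 of 21, chr14:74782152-74782251, plus strand: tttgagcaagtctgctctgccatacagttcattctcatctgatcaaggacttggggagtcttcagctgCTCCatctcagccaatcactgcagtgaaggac

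Of these sites, 9 lay in coding sequence and 3 in introns, the only places allowed for display. The motif CGG or CGA occurred in 8 of the 12 windows, flanked CAG in 6 and CUCC or CACC in 5, and the window of UBR4 held all 3. The window of CEP290, which encodes a protein of the cilium's base, held none. The UBR4 site lay on coding exon 68 of 106 and reached over both ends of this 246-nt exon, and those of NUP188 and ANAPC5 reached over both ends of their exons as well. NUP188 encodes a nuclear pore protein and ANAPC5 a subunit of the anaphase-promoting complex. The GPT2 site covered the junction between intron 9 and the next exon, and its midpoint lay 35 nt before the 3′ splice site. In contrast, the AKAP12 site lay inside a coding exon of 5042 nt and the RNF213 site inside one of 3609 nt, with no junction in the site. In every SCAF4 list the scores of the shown sites stood at or above the percentile of 74.2. PKD1P1 is a near-copy of PKD1 and AKAP17A lies in a region that the X and Y chromosomes share, so that the reads of these sites may have been placed on either copy.

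SCAF4-only sites rested mainly on SCAF4 replicates 2 and 3, the longest SCAF4 lists. Of the 5658 sites, 4150 (73.3%) had clusters in replicates 2 and 3 only, 666 in 1 and 2, 146 in 1 and 3, and 696 (12.3%) in all 3. The sites had a median length of 165 nt and spanned 53 to 710 nt. Beside them stood 1503 SCAF8-only sites, chosen by the mirror rule, and 3892 shared sites with at least 2 lists of each protein, both after the same removal. Just outside the rule, 18710 regions had 1 SCAF4 list in place of 2 and 4772 had at least 2 SCAF4 lists but also 1 SCAF8 list. Of those 4772, 1100 had clusters in all 3 SCAF4 lists.

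The number of sites depended on the lists. Without replicate 2 of both proteins 993 sites met the rule, and without replicate 3 2548. With each IP list cut to the 18287 clusters of the shortest, keeping the highest scores, 2302 SCAF4-only sites and 1403 SCAF8-only sites remained. Background clusters removed few candidates. Of 6816 regions with at least 2 SCAF4 lists and no SCAF8 list, 1158 (17.0%) overlapped a cluster of an input or control IP. The share was 42.3% for the mirror regions of SCAF8 and 73.9% for regions with at least 2 lists of each. In the SCAF4 lists, the sites' scores lay near the middle, at median percentiles of 53.3, 51.4 and 49.8 for replicates 1, 2 and 3.

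From the same PAR-CLIP data the study concluded that both proteins bind essentially the same sites. It held that SCAF4 gave more sites most likely for technical reasons and not through a biological difference. Here the sites were chosen again without 1 replicate number and then read in the SCAF4 and SCAF8 lists of that number. This asked whether SCAF4 clusters recurred at them more often than SCAF8 clusters in lists that had not chosen them. With replicate 1 left out, 975 of 5556 SCAF4-only sites (17.5%) overlapped a cluster of the SCAF4 list and 691 (12.4%) a cluster of the SCAF8 list. With replicate 2 left out, 803 of 953 (84.3%) recurred in the SCAF4 list and 96 (10.1%) in the SCAF8 list. With replicate 3 left out, 1480 of 2457 (60.2%) recurred in the SCAF4 list and 1088 (44.3%) in the SCAF8 list.

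SCAF4-only sites thus recurred more often with SCAF4 in all 3 numbers, although the left-out SCAF8 list also found between 10.1% and 44.3% of them. The lengths of the left-out lists differed, with 54404 SCAF4 and 18287 SCAF8 clusters in replicate 2. SCAF8-only sites, read in the same lists, therefore served as reference. Of those, 5.36%, 42.6% and 18.8% overlapped the left-out SCAF4 list and 20.1%, 18.2% and 60.1% the left-out SCAF8 list.

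The log2 ratio of SCAF4 to SCAF8 recurrence was 0.50, 3.06 and 0.44 for SCAF4-only sites and −1.90, 1.22 and −1.68 for SCAF8-only sites, for replicates 1, 2 and 3. The difference was 2.40, 1.84 and 2.12, with a mean of 2.12 ± 0.28 (SD, n = 3, exact sign-flip permutation test, two-sided, p = 0.25, the smallest that 3 numbers allow). It was positive in 3 of 3 numbers. The value fell to 0.82 with the lists cut to equal length and to 1.17 when clusters scoring below the median were left out. The 3 values share lists and are not independent. For shared sites the log2 ratio was 0.04, 0.87 and −0.03 for replicates 1, 2 and 3. In replicates 1 and 3 the SCAF8-only sites lay farther from the shared sites than the SCAF4-only sites did. In replicate 2 the SCAF4-only sites lay farther. The difference thus measures both sets and not the SCAF4-only sites alone.

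**Figure D1:**
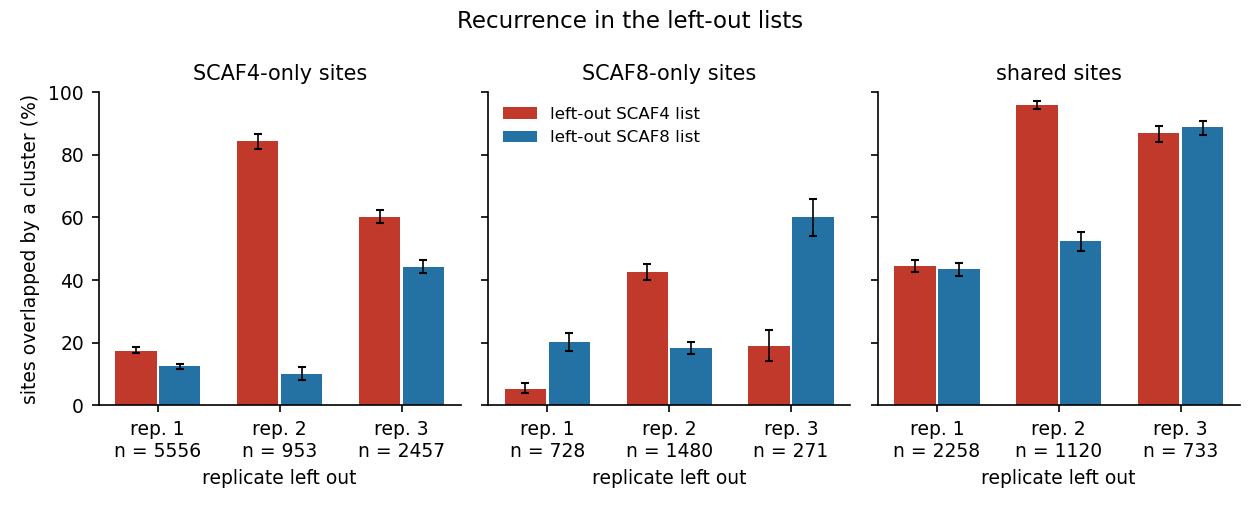
Share of sites (y axis, %) overlapped by a cluster of the left-out SCAF4 list (red) or SCAF8 list (blue), for sites chosen without replicate 1, 2 or 3 (x axis), with exact 95% binomial intervals. The panels show SCAF4-only, SCAF8-only and shared sites, with the number of sites under each pair of bars. SCAF4-only sites recurred more often in the SCAF4 list in each case, by 17.5% against 12.4%, 84.3% against 10.1% and 60.2% against 44.3%.

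Genes with SCAF4-only sites also held a larger share of the input clusters in the SCAF4 line than in the SCAF8 line. Genes with a SCAF4-only and no SCAF8-only site (2873 genes) held 35.3%, 36.3% and 36.8% of the clusters in the SCAF4 inputs, 30.9%, 31.6% and 31.3% in the SCAF8 inputs and 35.5%, 33.2% and 34.9% in the control inputs. The SCAF4 and SCAF8 inputs did not overlap, with means of 36.1% ± 0.748 and 31.2% ± 0.368 (SD, n = 3 each, exact permutation test, two-sided, p = 0.10, the smallest that 3 against 3 lists allow, and 0.15 after Benjamini-Hochberg adjustment over 6 comparisons). The SCAF4 and control inputs overlapped (difference 1.58 points, exact permutation p = 0.20). Genes with a SCAF8-only and no SCAF4-only site (654 genes) went the other way, with 6.65% ± 0.387 of the clusters in the SCAF4 inputs and 9.95% ± 0.859 in the SCAF8 inputs. Inputs were taken before the IP and hold RNA bound by any protein. The input lists also took part in the choice of the sites, since regions overlapped by an input cluster were removed. The comparison of inputs is thus not independent of the rule and is given as a description. The part of these differences between lines in the choice of the sites was not tested.

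Most SCAF4-only sites lay inside protein-coding genes. By their midpoint, 5014 (88.6%) were assigned to a protein-coding gene or its 2-kb flanks, 169 (2.99%) to a long noncoding RNA gene, 180 (3.18%) to a pseudogene and 278 (4.91%) lay outside genes. Coding sequence held 2973 sites (52.5%, exact 95% interval 51.2 to 53.9%) and introns 1685 (29.8%, 28.6 to 31.0%). The 3′ UTR held 202 (3.57%), the 5′ UTR 155 (2.74%) and exons of noncoding transcripts 214 (3.78%). These intervals cover counting error only. The share in coding sequence was highest, at 59.3%, among the sites of all 3 SCAF4 lists and was 52.0% among those of replicates 2 and 3 only.

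SCAF8-only sites lay elsewhere. Coding sequence held 54.2%, 52.8% and 52.8% of the SCAF4-only sites in the 3 SCAF4 lists and 22.1%, 20.2% and 20.3% of the SCAF8-only sites in the 3 SCAF8 lists. The difference of 32.4 points had p = 0.10 (exact permutation test, two-sided, 3 against 3 lists, the smallest possible), or 0.160 after adjustment over 8 measures. Over all clusters of the lists, without the rule, the coding share was 46.3% ± 3.15 for SCAF4 and 37.9% ± 3.34 for SCAF8 (SD, n = 3 each, exact permutation p = 0.10), a difference of 8.33 points. SCAF8-only sites were more frequent outside genes (301 of 1503) and in 3′ UTRs (200 of 1503, 13.3%) than SCAF4-only sites. Each site stands in at least 2 lists, so that the spread between lists understates the error of these shares.

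SCAF4-only and shared sites differed less. In the same 3 SCAF4 lists, the coding share of SCAF4-only sites differed from that of shared sites by −7.28, −5.35 and −5.70 points. For SCAF8-only sites in the SCAF8 lists the difference was −37.6, −37.9 and −37.2 points. Over all 6 lists, sites of 1 protein had 21.8 points less coding sequence and 11.1 points more intron than shared sites (exact sign-flip permutation test, two-sided, p = 0.031 for each, the smallest that 6 lists allow, and 0.05 after adjustment over 8 measures). The coding mean joins the small SCAF4 and the large SCAF8 differences. The 6 differences are not independent, because each site stands in at least 2 lists and shared sites enter the lists of both proteins. The intron share of SCAF4-only sites exceeded that of shared sites by 7.75, 8.31 and 8.41 points, a mean of 8.16 that fell to 1.57 when clusters scoring below the median were left out. Both calls were lost in 3 settings, without clusters scoring below the median, without background removal and without genes of many input regions, where the adjusted p for the intron share was 0.0833, 0.0625 and 0.0625. The small coding difference of the SCAF4 lists did not hold throughout. Its mean was −6.11 points, and it became 0.726 points without the removal by inputs and control IPs and 0.0519 points when clusters scoring below the median were left out.

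**Figure D2:**
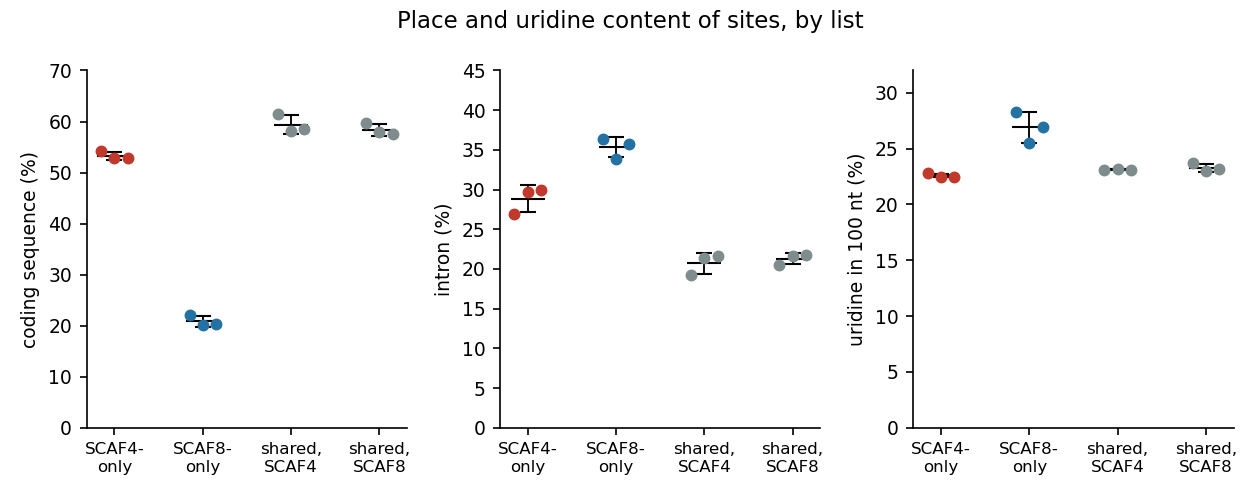
Share of sites with the midpoint in coding sequence (left) or in an intron (middle) and share of uridine in 100 nt around the midpoint (right), in %. Points are lists in the order of replicates 1, 2 and 3, and bars give the mean ± SD (n = 3). SCAF4-only sites (red) had 52.8 to 54.2% coding sequence, SCAF8-only sites (blue) 20.2 to 22.1%, and shared sites are drawn in grey in the lists of each protein.

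Many SCAF4-only sites covered a splice junction. Of the 5229 sites in gene bodies, 2491 (47.6%) covered at least 1 junction of the isoform used. Of these, 973 covered an exon-intron junction, 684 an intron-exon junction and 834 both. A further 1335 lay on an exon alone and 1403 in an intron alone. Junctions were covered by 22.3% of SCAF8-only and 61.7% of shared sites. Shared sites, at a median of 211 nt, exceeded SCAF4-only sites in length. Among sites of 150 to below 250 nt the shares were 53.2% for SCAF4-only, 22.1% for SCAF8-only and 64.7% for shared sites.

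The profile around junctions counts, at each distance, the junctions with a site over that position, whether or not the site reaches the junction. It was highest on the exon side. At 5′ splice sites it peaked 60 to 80 nt inside the exon, at 481 per 1000 SCAF4-only sites. In the 10 nt on each side of that junction it was 379 on the exon and 243 in the intron. At 3′ splice sites it peaked 60 to 70 nt inside the exon, at 468 per 1000 sites. SCAF8-only sites reached at most 195 and shared sites at most 598 per 1000. The coding exons that held SCAF4-only sites had a median length of 163 nt, close to the length of the sites themselves, so that a site on such an exon often covers an end of it. The coverage expected for sites of this length on such exons was not computed.

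**Figure D3:**
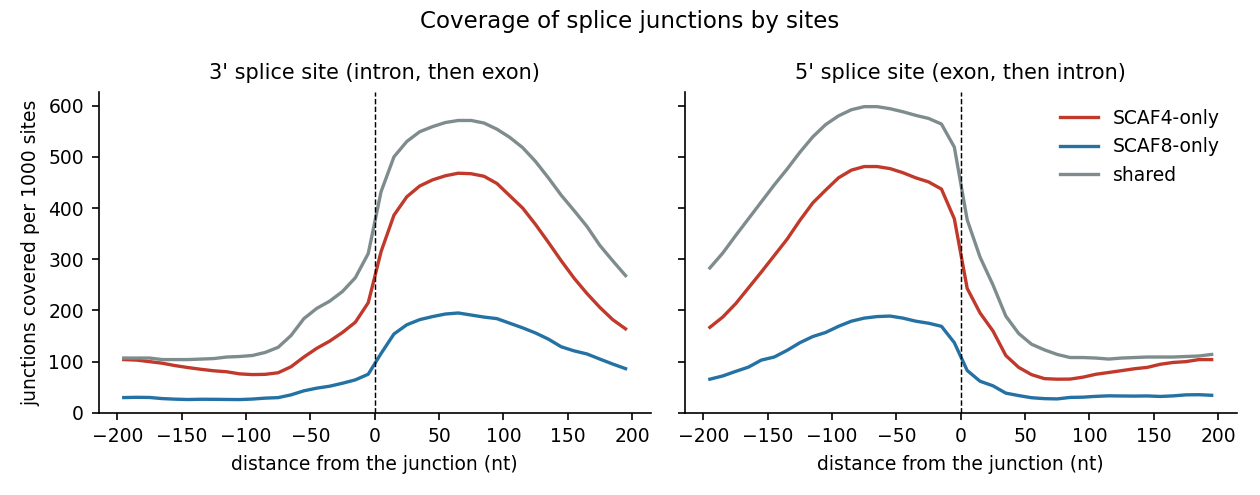
Splice junctions with a site over the position at a given distance (x axis, nt from the junction, bins of 10 nt), per 1000 sites (y axis). Lines show SCAF4-only (red), SCAF8-only (blue) and shared sites (grey). A counted site need not reach the junction. The dashed line marks the junction. All 3 profiles were higher on the exon side, where SCAF4-only sites reached 468 per 1000 beside 3′ splice sites and 481 beside 5′ splice sites.

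Within introns, SCAF4-only sites lay at a median of 1796 nt from the 5′ splice site (quartiles 492 and 6158 nt) and 2389 nt from the 3′ splice site. A 5′ splice site lay within 500 nt of 428 of the 1685 intron sites (25.4%), and 531 (31.5%) lay in intron 1. Shared intron sites lay closer to the 5′ splice site, at a median of 883 nt, and SCAF8-only intron sites farther, at 2552 nt. Along the spliced mRNA, exon sites leaned to the 5′ end, with a median at 30.3% of the length (quartiles 14.6 and 50.8%). The stretch from 90 to 100% of the mRNA held 52 of 3330 sites (1.56%). The median was 26.1% for shared and 40.7% for SCAF8-only sites. No test was made of these positions. The rule removed regions overlapped by input clusters, and 21.1% of the regions with clusters of at least 2 inputs lay in 3′ UTRs. The 3′ UTR held 12.8%, 10.3% and 8.79% of all clusters in SCAF4 lists 1, 2 and 3. It held 3.57% of SCAF4-only sites, and 4.78% without removal by input and control. The part of the rule in the lean to the 5′ end was not tested.

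Few SCAF4-only sites lay near known polyA sites. Of 637 proximal polyA sites listed by the study, 7 had a SCAF4-only site that overlapped the 200 nt before them and 15 one that overlapped the 1000 nt before them. For 665 intronic polyA sites these numbers were 3 and 15, and for 421 distal polyA sites 1 and 6. Within 200 nt, the SCAF4-only site ended before the polyA position at 3 of the 7 proximal and 1 of the 3 intronic polyA sites, and at the others it reached past it. At the proximal polyA sites, it ended before the position in LAMB1, PPIG and TBC1D15 and reached past it in OGFOD3, TRAPPC2L and RBM23, which holds a pair of them, and these genes were named after their values were seen. LAMB1 encodes a laminin chain and PPIG a nuclear peptidyl-prolyl isomerase with an SR-rich tail. Shared sites overlapped the 200 nt before 10 proximal, 7 intronic and 5 distal polyA sites, and SCAF8-only sites before 3, 0 and 4. All 3 sets lack regions overlapped by input or control IP clusters, and 21.1% of the regions with clusters of at least 2 inputs lay in 3′ UTRs. The effect of this removal was not tested, and the number of sites expected near polyA sites was not computed. Among the 10 genes that the study discusses for early polyadenylation, SCAF4-only sites occurred in 5, with 1 site each in AKAP13, DNAJB6, CNTLN, BCL11A and HP1BP3. BCL11A, which encodes a zinc-finger repressor, had an intron site with clusters in all 3 SCAF4 lists. DNAJC12, ZC3HAV1, USP15, RAD51C and COX10 held none.

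SCAF4-only sites were spread over 3179 genes, 2934 of them protein-coding. In 2070 genes there was 1 site, in 624 there were 2, and 134 genes had 5 or more. The 134 genes held 903 sites, or 16.8% of the sites assigned to genes. Neighbouring sites of a gene lay a median of 4713 nt apart. The genes were seldom without SCAF8. Only 429 of the 3179 genes (13.5%) held no SCAF8 IP cluster, and these had 524 sites (9.74%). A shared site was present in 1142 of the genes (35.9%), which made up 47.7% of the 2396 genes with a shared site. A SCAF8 IP cluster lay within 1000 nt of 2223 sites (39.3%) and within 100 nt of 445 (7.86%), and the median distance to the nearest was 1758 nt.

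The 20 protein-coding genes with the most SCAF4-only sites held 217 of them, 125 in coding sequence and 87 in introns. In 10 of the genes more sites lay in coding sequence than in introns, in 9 more lay in introns, and in 1 they were equal in number. The 20 genes held 74 shared sites and 1 SCAF8-only site. In 19 of them both SCAF4 lists of replicates 2 and 3 had more clusters than any SCAF8 list. The SCAF4 list of replicate 1 was above every SCAF8 list in 5 of them. These counts were used by the rule and are given as a description. The same counts were not made over all genes, so they do not set these genes apart from others. Over all places, SCAF4 lists 2 and 3 held 54404 and 33962 clusters and the SCAF8 lists 18287 to 41502.

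Among genes with mainly coding sites, UBR4, a ubiquitin ligase that recognises destabilising protein ends, had the most, with 20 SCAF4-only sites (chr1:19074510-19210266, minus strand, 106 exons). It held 21, 97 and 74 clusters in the SCAF4 lists and 17, 33 and 59 in the SCAF8 lists, so that the ranges of the 2 proteins overlapped. Of its 20 sites, 19 lay in coding sequence and 18 covered a junction, and 9 further sites were shared. MDN1, an ATPase of ribosome biogenesis, had 11 sites, all in coding sequence, with 9, 59 and 47 SCAF4 clusters and 14, 21 and 31 SCAF8 clusters. CHD8, a chromatin remodeller, had 10 sites, 9 of them coding, and no shared site. Its SCAF4 lists held 5, 25 and 17 clusters and its SCAF8 lists 2, 1 and 4, which did not overlap.

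PLCG1, a phospholipase of receptor signalling, had 9 sites and PDCD11, a factor of ribosomal RNA processing, also 9, with 8 in coding sequence in each. TRRAP, the scaffold of histone acetyltransferase complexes, had 15 sites, with 8 in coding sequence and 6 in introns, and 11 shared sites. NAT10, an RNA cytidine acetyltransferase, had 10 sites, 8 of them at junctions, and GCN1, which activates the kinase GCN2, had 10 beside 12 shared sites. PRKDC, the catalytic subunit of the DNA-dependent protein kinase, had 10. Its SCAF4 lists held 38, 95 and 76 clusters and its SCAF8 lists 37, 46 and 71. In PRKDC and GCN1 the SCAF4-only sites thus lay among many clusters of both proteins, whereas PLCG1 held 2, 1 and 3 SCAF8 clusters and NAT10 1, 5 and 6.

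Among genes with mainly intron sites, SLC38A1, which encodes a glutamine transporter, had 14 SCAF4-only sites (chr12:46183063-46269043, minus strand), 10 of them in introns. Its SCAF4 lists held 13, 72 and 45 clusters and its SCAF8 lists 23, 3 and 19. SLC7A5, a carrier of large neutral amino acids, had 11 sites, 8 in introns. Its input clusters numbered 8, 16 and 15 in the SCAF4 line against 3, 1 and 1 in the SCAF8 line and 4, 6 and 6 in the control line. TENT4A, a noncanonical poly(A) polymerase, had 11 sites, 8 in introns, and its SCAF4 lists held 30, 52 and 39 clusters against 19, 6 and 18 with SCAF8, which did not overlap. TENT4A inputs held 24, 9 and 4 clusters in the SCAF4 line, 9, 1 and 2 in the SCAF8 line and 16, 5 and 3 in the control line. The part of input level in the sites of SLC7A5 and TENT4A was not tested.

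TLE3, a corepressor of the Groucho family, had 10 sites and SKI, a repressor of TGF-β signalling, had 9, with 7 and 8 in introns. PCNT, a centrosome scaffold, had 10 sites, 6 in introns, and no shared site. Its SCAF4 lists held 15, 47 and 32 clusters and its SCAF8 lists 4, 3 and 8, while the control IPs held 17, 0 and 1. WDR90, a centriole protein, had 10 sites in 18509 nt, the highest density of the 20 genes at 5.40 per 10 kb. TUBGCP2, a subunit of the γ-tubulin complex, had 10 and CARS1, the cysteinyl-tRNA synthetase, 9, with 6 in introns in each. BRD1, a subunit of histone acetyltransferase complexes, had 9, with 4 in coding sequence and 4 in introns.

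PKD1, which encodes polycystin-1, had 10 SCAF4-only sites. Together with its pseudogenes it accounted for 52 sites at 7 loci of chromosome 16, among them PKD1P2 with 13 and PKD1P1 with 10. The pseudogenes are near-copies of PKD1, and the files do not tell which copy the reads came from. Leaving out PKD1 and all pseudogenes left 5468 SCAF4-only sites.

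**Figure D4:**
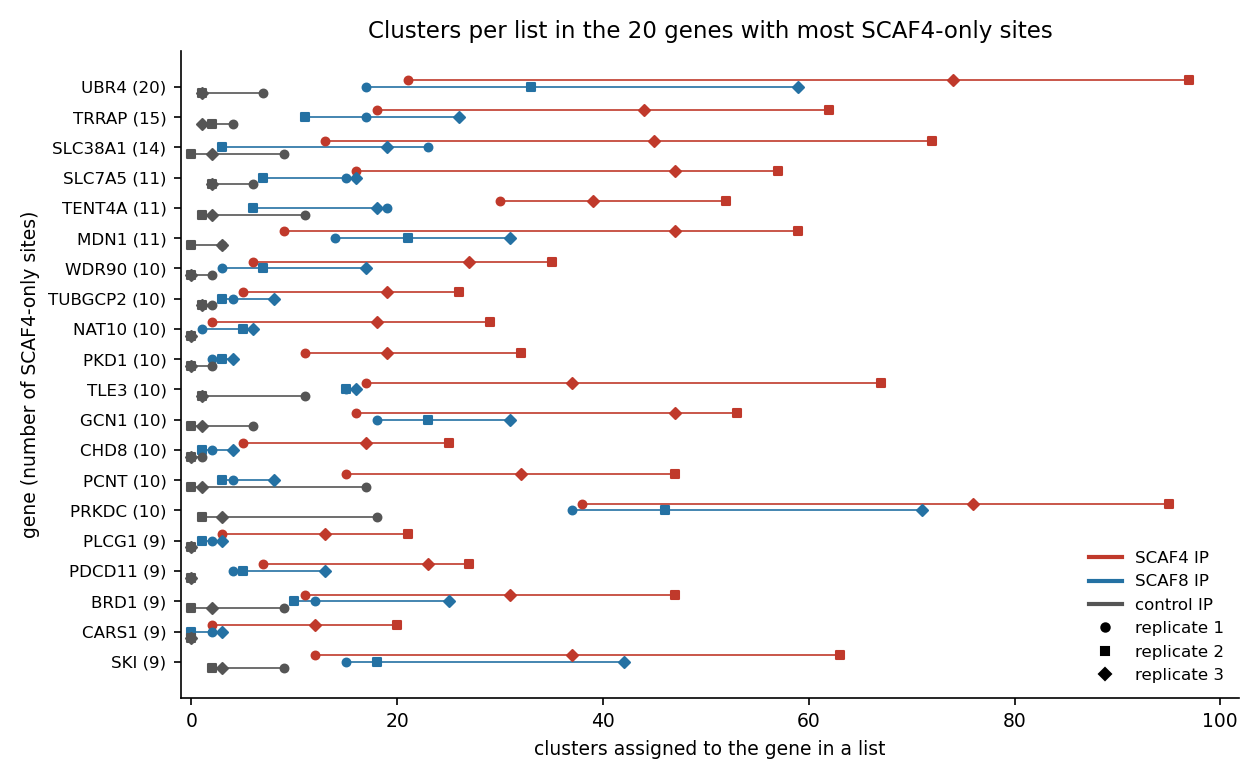
Number of clusters assigned to each of the 20 genes with the most SCAF4-only sites (x axis) in the IP lists of SCAF4 (red), SCAF8 (blue) and the control line (grey), with a symbol for each replicate. The number of SCAF4-only sites is in brackets. In 19 of the genes replicates 2 and 3 of SCAF4 lay above all SCAF8 lists, and in 15 replicate 1 of SCAF4 did not. The genes were chosen by these clusters, and no such count was made over all genes.

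Among protein-coding genes without a SCAF8 cluster, 9 of those with the most SCAF4-only sites are described here. UCKL1, a uridine kinase-like protein, and ZNF43, a zinc-finger protein, had 5 each. The UCKL1 clusters numbered 0, 9 and 5 in the SCAF4 lists and those of ZNF43 4, 7 and 5. RAPGEF3, an exchange factor activated by cyclic AMP, and NBEAL2 had 4 each. QARS1, the glutaminyl-tRNA synthetase, DPH1, an enzyme of diphthamide synthesis, GTF3A, a transcription factor for 5S RNA, IRX5 and APBB3 had 3 each. In 6 of these 9 genes the SCAF4 list of replicate 1 held no cluster, so that the sites rested on replicates 2 and 3 only.

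Counts over gene lists are given beside the 31.0% of all 9451 protein-coding genes with a cluster that had a SCAF4-only site. Among chromatin remodellers and histone methyltransferases, 31 of 38 genes (81.6%) had 1 or more, with 111 sites, led by TRRAP, CHD8, SETD1A and KMT2B. Among microtubule motors and giant cytoskeletal proteins it was 23 of 32 (71.9%), led by PCNT, the dynein heavy chain DYNC1H1, the cytoskeletal linker MACF1 and CEP290. CEP290 had 6 sites, with 4, 12 and 8 clusters in the SCAF4 lists against 0, 0 and 1 with SCAF8. Among DNA repair and checkpoint genes it was 22 of 33, led by PRKDC, the polymerase subunits POLE and POLA1, and TP53BP1. Ubiquitin ligases and deubiquitinases had 21 of 34, with UBR4, RNF213 and USP22 among those with the most sites.

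Spliceosome, SR and hnRNP genes had SCAF4-only sites in 24 of 40, led by the splicing factors RBM25, SNRNP200, EFTUD2 and SF3B1. RNA polymerase II subunits and elongation factors had them in 23 of 40, led by SUPT6H, SETD2, NELFCD and CCNK, and cleavage, polyadenylation and termination factors in 16 of 31. Translation and ribosome genes had them in 14 of 31, and abundant nuclear and long noncoding RNAs in 2 of 12, namely GAS5 and KCNQ1OT1 with 1 site each. Shared sites occurred in 23.4% of the protein-coding genes with a cluster and in 71.1% of the chromatin list, 50.0% of the microtubule list and 72.5% of the spliceosome list. No test was made of these lists.

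The SCAF4 transcript itself had 5 SCAF4-only sites, 3 in coding sequence, 1 in the 5′ UTR and 1 in an intron. SCAF4 clusters numbered 16, 25 and 24 in the SCAF4 IPs and 17, 16 and 17 in the inputs of the SCAF4 line, against 3, 3 and 4 in the inputs of the SCAF8 line and 7, 2 and 1 in the control line. The line expresses a transgene made from the SCAF4 coding region. In coding exons, RNA of the transgene and of the cells' own gene cannot be told apart. CPSF1, a subunit of the cleavage and polyadenylation factor, and RPRD2, a protein that binds the polymerase tail, had 3 sites each, and the tail phosphatase SSU72 had 2 in introns.

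In sequence, SCAF4-only sites were lower in uridine than SCAF8-only sites. Uridine made up 22.8%, 22.5% and 22.5% of the 100 nt around the midpoint in the SCAF4 lists and 28.3%, 25.5% and 26.9% for SCAF8-only sites in the SCAF8 lists, a difference of −4.28 points (exact permutation test, two-sided, p = 0.10, the smallest possible, 0.160 after adjustment over 8 measures). The groups did not overlap. Over all clusters of the lists, without the rule, the difference was −1.58 points (24.3% against 25.9%, exact permutation p = 0.10, 0.267 adjusted). Over coding sites alone the values were 21.6%, 21.4% and 21.3% against 25.4%, 23.8% and 24.5%, which did not overlap either. Shared sites stood close to SCAF4-only sites, with 23.1 to 23.2% in the SCAF4 lists. G+C made up 50.7% ± 0.368 of SCAF4-only and 50.6% ± 1.69 of SCAF8-only windows (SD, n = 3 lists), and the lists overlapped.

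The motif CGG or CGA was present in 4073 of the 5658 SCAF4-only windows (72.0%), flanked CAG in 2707 (47.8%) and CUCC or CACC in 2848 (50.3%). All 3 were present in 1265 windows (22.4%) and none in 621. In 13456 merged input regions with clusters of at least 2 inputs the shares were 56.7%, 35.8% and 41.5%. For CGG or CGA the difference was smaller in coding sequence than in introns, which was not tested. Within coding sequence, CGG or CGA occurred in 77.9% of SCAF4-only windows and 75.2% of input windows, and within introns in 60.4% and 43.9%. Flanked CAG occurred in 50.3% of SCAF4-only and 40.1% of input windows in coding sequence, and in 41.4% and 31.8% in introns. SCAF4-only windows had CGG or CGA more often than SCAF8-only windows, in 71.8%, 72.0% and 72.0% against 61.4%, 69.3% and 65.6% by list (difference 6.53 points, exact permutation p = 0.10, 0.160 adjusted). Over all clusters of the lists the difference was 3.20 points (exact permutation p = 0.20), and the lists overlapped. Over coding sites alone this difference was 2.18 points, and the lists overlapped.

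Sites of 1 protein held CGG or CGA less often than shared sites in all 6 lists, with differences of −3.45 to −3.06 points in the SCAF4 lists (mean over 6 lists −6.53 points, exact sign-flip permutation p = 0.031, 0.05 adjusted over 8 measures). The call was lost without clusters scoring below the median (0.0833 adjusted), without background removal and without genes of many input regions (0.0625 adjusted in both). Without background removal the mean over the SCAF4 lists was −0.546 in place of −3.27 points. CUCC or CACC was lower as well, with differences of −2.96, −3.35 and −3.44 points in the SCAF4 lists (mean over 6 lists −2.79 points, exact sign-flip permutation p = 0.031, 0.05 adjusted). Without replicate 3 the mean turned to 0.232 points, and the call was lost in the same 3 settings (0.321, 0.0625 and 0.10 adjusted) and with lists of equal length (0.0833 adjusted). The mean over the SCAF4 lists moved from −3.25 to −0.432 points without background removal. CAG flanked by C or G differed little between SCAF4-only and shared sites, with 0.648, 0.767 and 0.835 points more in the SCAF4 lists. A match is a description of the letters in the window and not of binding.

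**Figure D5:**
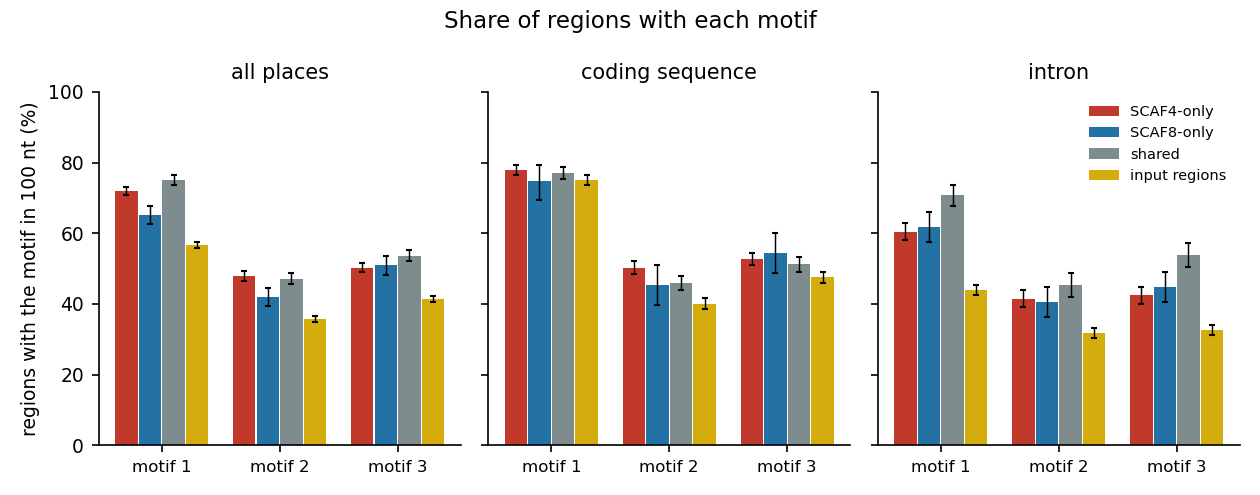
Share of regions (y axis, %) with a motif in 100 nt around the midpoint, for all places, coding sequence and introns, with exact 95% binomial intervals. Motif 1 is CGG or CGA, motif 2 is CAG with C or G on each side, and motif 3 is CUCC or CACC. The study found these motifs in the same data, with input clusters as background. In introns motif 1 was present in 60.4% of SCAF4-only sites, 70.8% of shared sites and 43.9% of input regions.

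Of all 256 words of 4 letters, those most frequent in SCAF4-only relative to SCAF8-only windows were CGAA (14.1% against 7.25% of windows, ratio 1.94), ACGA (ratio 1.67), CAAC (1.63) and ACAA (1.56). Those least frequent were GGGU (22.4% against 36.9%, 0.61), GUGU (30.6% against 48.1%, 0.64) and UUUU (23.1% against 36.2%, 0.64). Relative to shared sites the ratios were nearer to 1, from 0.81 for UUCG to 1.21 for AAAA. CGAA stood in 10.5% of input windows. No test was made over words.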

How the data were processed

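PAR-CLIP libraries of FLAG-SCAF4, FLAG-SCAF8 and parental Flp-In T-REx HEK293 cells were measured as IP and input. Per the labels and the study's methods, reads were aligned to GRCh38 (Bowtie2 2.2.9, after Trim Galore and cutadapt), the soluble and chromatin fractions were combined, and clusters were called per replicate with PARalyzer. The 18 deposited BED lists hold, for each cluster, a position, a strand and an unnamed score made by the authors, used here only to rank clusters within a list. A call needed a minimum of reads and of T-to-C transitions, so that a list can lengthen with depth. The lists hold no reads, so depth is unknown and precision is limited by the number of lists. They precede the study's own filters against input and control.

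Samples were grouped by their titles, and 0 per-sample columns went unused. Clusters were merged by strand with an overlap of at least 1 nt. A site was assigned by its midpoint to GENCODE 44, with 1 isoform per gene (the largest summed exon length) and flanks of 2 kb. Motifs, G+C and U were read from 100 nt centred on each midpoint, in the direction of transcription. Positions of polyA sites came from the study's supplementary lists. SCAF4-only and SCAF8-only sites were compared over 3 against 3 lists by exact permutation, and protein-only and shared sites within 6 lists by exact sign flips, both two-sided, with Benjamini-Hochberg adjustment over 8 measures. Lists of a protein share sites, so neither test rests on independent lists. Sites chosen without 1 replicate number were read in the lists of that number. Binomial intervals are exact (Clopper-Pearson, 95%) and cover counting error only. Genes were named by number of SCAF4-only sites (the 20 highest, the 10 highest without SCAF8 clusters, up to 4 per gene list), and the study's genes were added. Of the genes this rule names, 2 are not reported here. The members, lists and tests were chosen with earlier results of these data known. Alternatives were the number of lists required, the overlap, a SCAF8 cluster within 100 nt, the score, list length, background removal, isoform, replicates left out and a replicate block. Leaving out pseudogenes and PKD1, and testing sequence over coding sites alone, were chosen after seeing the data. Input shares in member genes and measures over all clusters were compared by exact permutation of 3 against 3 lists. The input shares were adjusted over 6 comparisons. These tests and the junction shares within a band of site length were not in the plan. The computations were tested on simulated data. Python 3.11.15, numpy 2.4.6, scipy 1.17.1, pysam 0.24.0 and matplotlib 3.10.9 were used.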

Additional observations from a re-analysis of the deposited data

Results flagged for a closer look

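Uridine and flanked CAG differed from shared sites in opposite directions for the 2 proteins. In 100 nt around the midpoint, SCAF4-only sites differed from shared sites in mean uridine share by −0.529 points in the SCAF4 lists, and SCAF8-only sites by 3.60 points in the SCAF8 lists. CAG flanked by C or G was present in SCAF4-only windows 0.750 points more often and in SCAF8-only windows less often (−4.53 points) than in shared windows. Every list of one protein lay on one side of 0 and every list of the other on the opposite side, and the difference itself was not tested. Without replicate 1 the directions for CAG turned, to −1.03 points for SCAF4-only and 0.315 points for SCAF8-only sites, and with the lists cut to equal length the mean for uridine in SCAF4-only sites became 0.0188 points.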

How the results depend on the processing

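The number of SCAF4-only sites was 696 with all 3 SCAF4 lists required, 2848 without clusters scoring below the median, 2302 with lists cut to the shortest, 3675 with genes of many input regions removed, and 993 to 6268 with 1 replicate left out. Their coding share was then 59.3%, 55.6%, 57.3%, 55.5% and 52.5 to 58.6%, and it was 48.8% without removal by input and control and 54.2% without pseudogenes and PKD1, an alternative added after seeing the data.

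The coding difference between SCAF4-only and SCAF8-only sites stayed positive in all alternatives run, from 25.6 to 44.1 points, and from 29.6 to 34.6 with 1 replicate left out. With a replicate block it was 32.4 points (exact sign-flip permutation p = 0.25). The smallest p is 0.10 without the block and 0.25 with it, so that no measure could be called in either. Same-numbered SCAF4 and SCAF8 lists deviated together with correlations of 0.368, 0.0303 and 0.166 over 4111 genes, so the numbers were not taken as pairs. Replicate 2 of SCAF4 correlated more with replicate 3 of SCAF8 (0.281), and replicate 3 of SCAF4 with replicate 2 of SCAF8 at 0.186. Replicate 1 of SCAF4 stood at −0.152 and −0.316 with SCAF8 replicates 2 and 3. Replicate 1 of SCAF8 stood at −0.237 and −0.284 with SCAF4 replicates 2 and 3. The part of the longer reads of replicate 1 was not tested. The difference in left-out recurrence stayed between 0.82 and 2.29 on the log2 scale. It was not computed with all 3 lists required or with the other isoform.

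The coding difference between protein-only and shared sites kept its direction but missed the threshold at −13.1 points without clusters scoring below the median, −15.9 without removal, −21.8 with genes of many input regions removed (0.0625 adjusted), and −24.2 to −19.2 with 1 replicate left out, where 4 lists cannot reach it.

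Directions turned for G+C against shared sites (0.0484 with all 3 lists, −1.54 to 0.247 with 1 replicate left out), for CAG (0.431 without removal, −2.76 to 1.68) and for CUCC or CACC (−3.04 to 0.232). Against SCAF8-only sites they turned for G+C (−1.43 with all 3 lists, −0.138 without pseudogenes, −1.37 to 0.838 with 1 replicate left out), CAG (−1.35 to 6.77) and CUCC or CACC (1.57 with the shortest lists, 4.12 without removal, −1.27 to 1.28). The cause was not tested. With no read depth, a missing SCAF8 cluster bounds no SCAF8 level.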
